A study of Mus musculus with 20 samples.

Results

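The 60 probes described here measure structural genes of the motile axoneme, the microtubule and dynein scaffold that makes a cilium beat. They were chosen by the gene name printed on the array: every probe that was not a control and whose name began with a dynein heavy chain, intermediate chain or light chain stem, a tektin, a radial spoke protein (Rsph or its older form Rshl), Spag6, Spag16, Spag17, Spef, Efhc, Hydin, Ak7 or Tctex1d. The naming rule itself uses no measured value. The 60 probes covered 31 genes among 41174 different probes, and 37 of them, from 26 genes, cleared the background on 10 or more of the 20 arrays and were tested. Of the 23 probes not tested, 16 were well above background on no array, and they included all probes of Dnai2 (Dnaic2), Tctex1d1, Tekt3, Rsph6a and Spag6. The array files place the probe counted as Spag6 on chromosome 16, as they do that of Spag6l. RefSeq has Spag6 on chromosome 2, so the gene behind this probe is uncertain. Rsph4a, the marker gene of the set and a component of the radial spoke head, was well above background on all 10 uninjured arrays.

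Total RNA of whole mouse trachea was hybridized to 1-colour Agilent arrays, with 5 animals in each of 4 groups. The mice were 4 months old and were either wild-type or carried a germline knockout of Myd88 (Myd88KO), the adaptor of most Toll-like receptors and of the interleukin-1 receptor. Both uninjured groups had no polidocanol, and both injured groups were taken 3 days after airway exposure to 2% polidocanol, a detergent that strips the tracheal surface epithelium. The paper's methods state that all mice received BrdU shortly before they were killed. The knockout had been backcrossed to the wild-type strain (C57/Bl6) and was bred knockout to knockout, with the wild-type mice kept as a separate colony, so that the Myd88 genotype and the colony cannot be told apart. Sex was not given per sample, and the samples were whole organs that also held cartilage, muscle, glands and leukocytes.

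A motile cilium carries a ring of outer doublets around a central pair of microtubules. Outer and inner dynein arms on the doublets slide them against each other, radial spokes pass signals from the central apparatus to the arms, and tektins and EF-hand proteins lie inside the doublet wall. In the airway such cilia are made by multiciliated cells, which switch on this gene set under Foxj1 and the Rfx factors when they differentiate, and defects in several of the genes cause primary ciliary dyskinesia. In bulk RNA, a lower level from fewer multiciliated cells cannot be told apart from a lower level per cell.

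All levels below are log2 signals relative to the 75th percentile of the same array, so a difference of 1 is a doubling, and levels are compared between arrays for 1 probe and never between probes. A probe was called when its adjusted p (limma over all 26064 tested probes, Benjamini-Hochberg) was under 0.01. Each slide held 1 array of each group, and the slide number is the replicate number. Slides 2, 3 and 4 were scanned on 1 day and slides 1 and 5 on another. Replicates of one group correlated at 0.955 to 0.990 over the array. The single Myd88 probe read 2.08 ± 0.14 (SD, n = 5) in uninjured wild-type and 1.86 ± 0.17 (n = 5) in uninjured Myd88KO, a difference of -0.21 with adjusted p = 1.00 in limma. In injured mice it read 2.65 ± 0.18 (n = 5) in wild-type and 1.89 ± 0.26 (n = 5) in Myd88KO, with no overlap and a difference of -0.77 (adjusted p = 0.0082, limma). The part of the gene deleted is not given in the sources used here, so this probe did not check the genotype. Injured Myd88KO replicates 1 and 5 stood apart: their median changes over 7 leukocyte markers, 0.08 and -0.50 from the uninjured wild-type mean, lay within the uninjured Myd88KO range of -0.85 to 0.13, and their axoneme medians were not below the uninjured Myd88KO arrays. Over 8 secretory cell markers the 2 arrays differed. Replicate 1 had a median change of -1.08, below the uninjured Myd88KO range of -0.36 to 0.42, and replicate 5 had 0.07, within it. Replicate 5 also had the most spots marked as outliers of the 20 arrays, 192, with the next array at 113. Its share of spots well above background, 57.5%, was the lowest of the 20. For the comparisons that use replicates 1 and 5, the calls and medians of the members are given with and without each. Counts by direction or at an unadjusted p, and the calls of the other gene lists, are not.

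At 3 days after injury, wild-type mice had most falls among the dynein heavy chains and the central apparatus. In all, 14 of the 37 tested probes fell (adjusted p under 0.01, limma) and none rose, against 2.03% of all tested probes called lower and 3.24% called higher. The median difference over the 37 probes was -2.44, against 0.00 over all tested probes, and 36 of 37 differences were below 0, against 50% of all probes. In 21 of the 37, every injured wild-type array lay below every uninjured one, which held for 4.68% of all tested probes. Both the 14 and the 21 include Dnahc3, a Spag16 probe and the dimmer Dnah5 probes. These were not well above background on any injured wild-type array and passed the filter through the other groups. With 1 probe per gene, the brightest, 9 of 26 genes fell. The number changed when single arrays were left out: 7 probes were called without injured replicate 1 and 7 without injured replicate 5, 9 without uninjured replicate 1, 8 without uninjured replicate 2 and 8 without uninjured replicate 4. All probes called in those 5 fits were among the 14. Among the 19 probes well above background on all 20 arrays, 4 were called when only such probes were fitted, and their median difference was -1.37. The share of all probes called is not given for these fits or for those without single arrays. The lower counts therefore do not tell whether this gene set lost calls beyond the whole array.

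**Figure D1:**
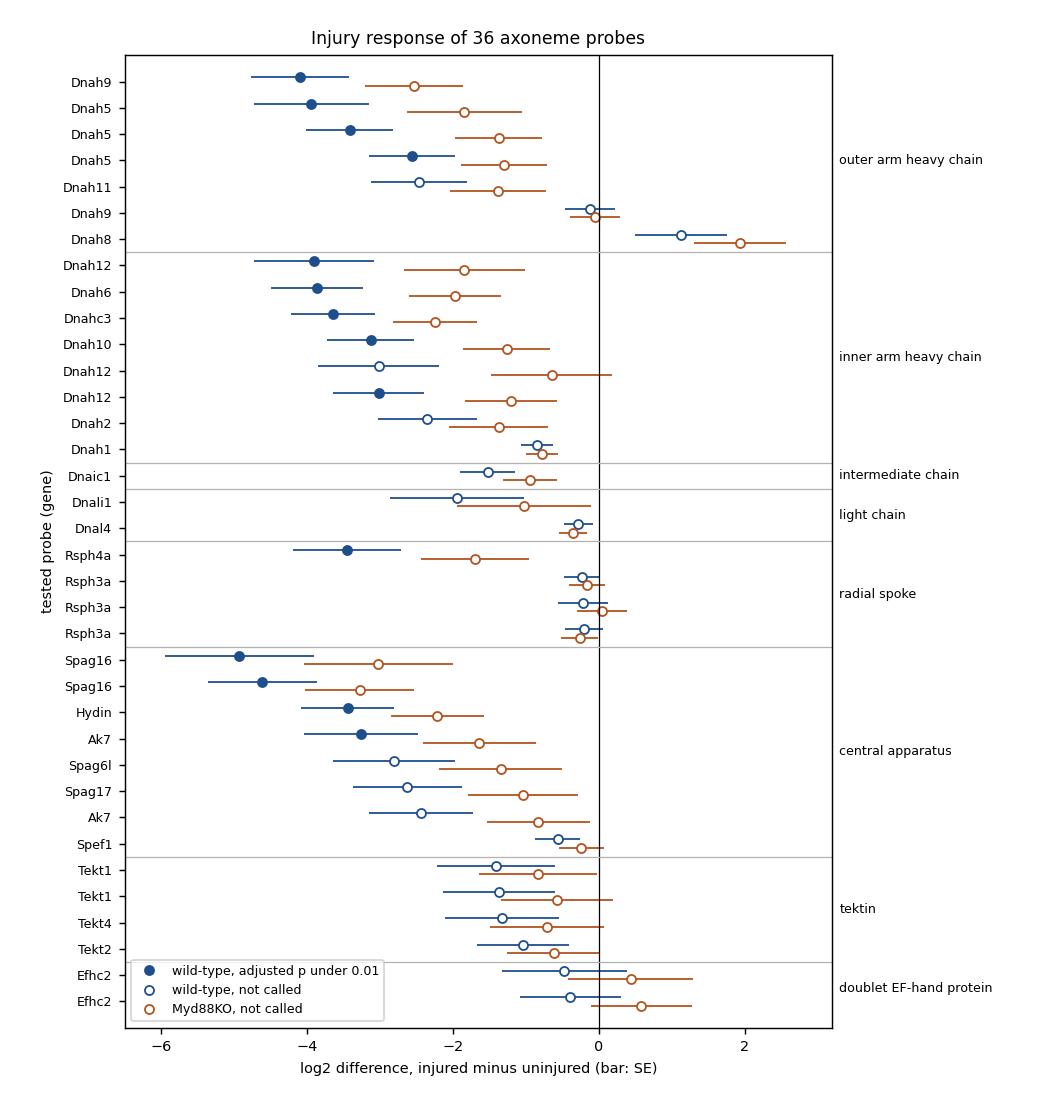
Log2 difference between injured and uninjured tracheas for 36 of the 37 tested probes, ordered by role, in wild-type (blue) and Myd88KO mice (orange). Bars are standard errors from limma with 5 arrays per group, and filled points passed the adjusted p threshold. The 14 filled points are all wild-type and lie between -2.56 and -4.93, while no Myd88KO point is filled.

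The outer dynein arms are built on heavy chains, the ATPase motors themselves. Dnah5 encodes an outer arm heavy chain whose loss immobilizes airway cilia. Its brightest probe read 2.11, 1.69, 1.27, 2.00 and 1.69 in the uninjured wild-type replicates 1 to 5 and -3.38, -1.51, -0.90, -1.50 and -3.66 in the injured ones. The groups did not overlap, and the 2 lowest injured values were those of slides 1 and 5. The difference was -3.94 ± 0.79 (SE, adjusted p = 0.0032, limma). The 2 dimmer Dnah5 probes also fell, by 3.42 and 2.56, but neither was well above background on any injured wild-type array, so that their change is at least 2.68-fold and at least 2.35-fold lower.

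Dnah9, the heavy chain that takes over the distal part of airway cilia, read 1.32 to 1.87 in uninjured wild-type and -3.49, -1.79, -1.92, -1.99 and -3.22 in injured replicates 1 to 5. Again all injured arrays lay below all uninjured ones (-4.10 ± 0.67, SE, adjusted p = 0.00094, limma). A second Dnah9 probe disagreed, with a difference of -0.11. It was dim, well above background on 3 of 5 uninjured and 5 of 5 injured wild-type arrays, and which of the 2 probes reads the transcript better was not tested. Dnah11, a proximal outer arm heavy chain, had a difference of -2.46 (adjusted p = 0.019, limma) and was not called.

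Dnah8, an outer arm heavy chain known mainly from sperm flagella, went the other way. In uninjured wild-type arrays it read -2.82, -3.11, -3.07, -2.94 and -2.83. In injured replicates 2, 3 and 4 it read -0.71, -0.78 and -0.67, while replicates 1 and 5 read -3.63 and -3.32, so that 3 injured arrays lay above and 2 below all uninjured ones. Over the 5 replicates the difference was 1.13 ± 0.63 (SE, adjusted p = 0.27, limma). Within the arrays of slides 2 to 4 it was 2.32 (adjusted p = 0.0091, limma on those arrays alone), and within slides 1 and 5 it was -0.65. This split by slides was chosen after the values were seen. Of the 37 probes, that of Dnah8 was the one with a positive difference over the 5 replicates.

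Among the inner arm heavy chains, which shape the ciliary waveform, 5 of 8 tested probes fell and all 8 differences were below 0. Dnah6 read 0.15, -0.01, -0.14, 0.86 and -0.16 in uninjured wild-type and -5.11, -3.30, -2.85, -2.78 and -4.59 in injured replicates 1 to 5. The groups did not overlap, and the difference was -3.87 ± 0.63 (SE, adjusted p = 0.00090, limma). Dnahc3 (Dnah3) was not well above background on any injured wild-type array, and its measured mean moved from -3.28 to -6.93, which bounds the change at at least 3.27-fold lower. Its adjusted p of 0.00079 (limma) is for the measured values, with the injured ones at background, and does not test the bound. Dnah10 also fell (-3.13 ± 0.59, SE, adjusted p = 0.0023).

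The brightest inner arm probe was that of Dnah2, at 1.84, 1.28, 0.88, 1.72 and 1.36 in uninjured wild-type and -2.40, -0.03, -0.16, -0.19 and -1.90 in injured replicates 1 to 5. The groups did not overlap, yet the adjusted p of 0.027 missed the threshold (-2.35 ± 0.68, SE). Dnah12 had 3 tested probes, of which 2 fell, by 3.90 and 3.02. The array files place those 2 on chromosome 1 and the third, with -3.02 and adjusted p = 0.022, on chromosome 14, where RefSeq has Dnah12, so the gene behind the first 2 is uncertain. Dnah1 changed least in this role, with a difference of -0.84 (adjusted p = 0.016, limma).

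**Figure D2:**
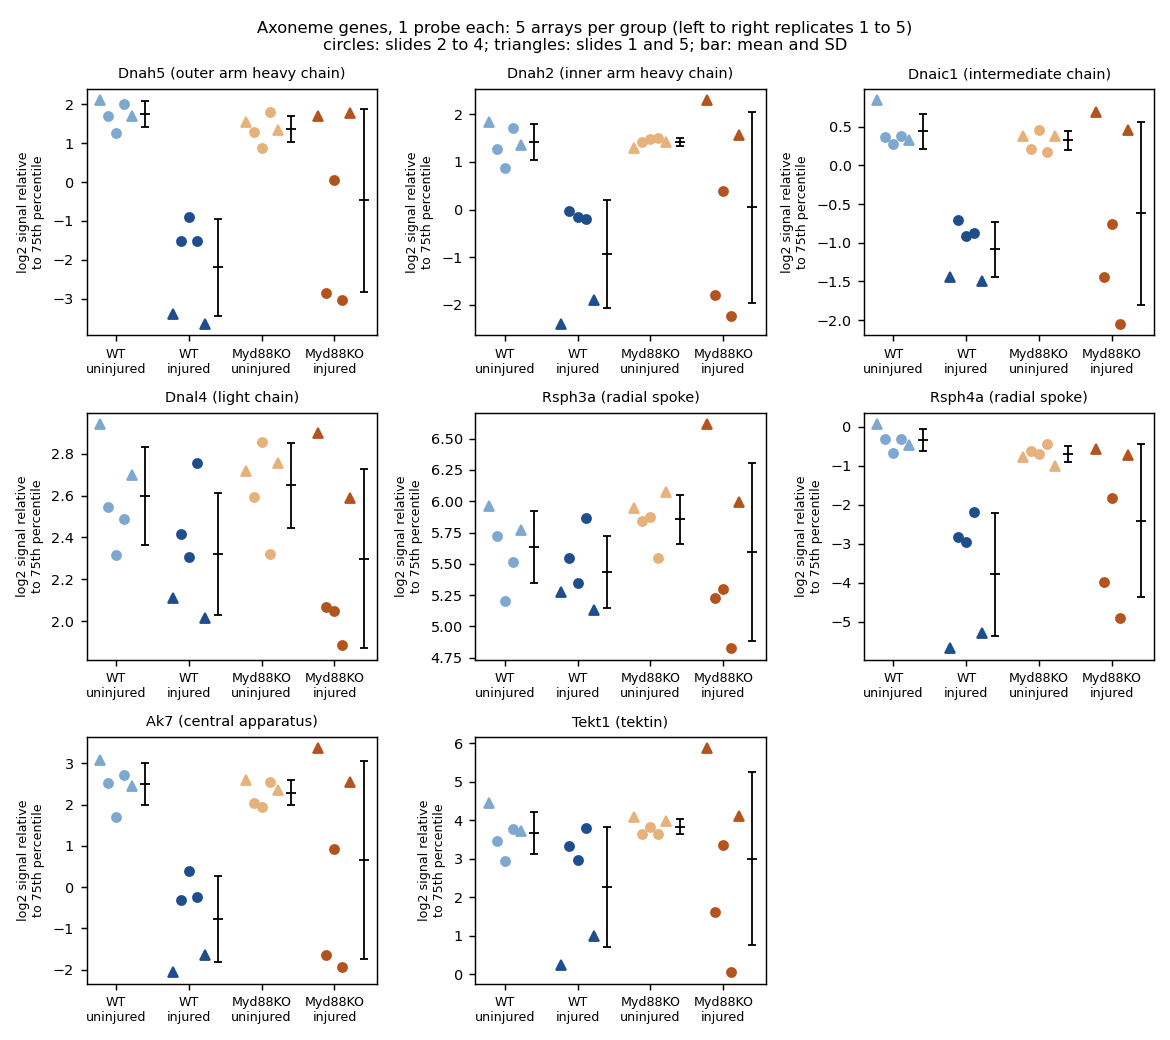
Log2 signal relative to the array's 75th percentile for the brightest tested probe of each of 7 roles and for Rsph4a, on each of the 20 arrays. Circles are slides 2 to 4, triangles slides 1 and 5, and bars give mean and SD over 5 arrays. Injured wild-type arrays of Dnah5, Dnah2, Dnaic1, Rsph4a and Ak7 all lie below the uninjured ones, whereas for Tekt1 the injured circles lie among the uninjured points.

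Dnaic1 (Dnai1), an intermediate chain that anchors the outer arm to its doublet, read 0.84, 0.37, 0.27, 0.38 and 0.33 in uninjured wild-type and -1.45, -0.70, -0.92, -0.88 and -1.49 in injured replicates 1 to 5. No array overlapped, and the adjusted p was 0.011 (-1.52 ± 0.37, SE, limma). The light chains were not called. Dnal4, a light chain shared by several dyneins, read 2.32 to 2.94 uninjured and 2.02 to 2.75 injured, and these ranges overlapped (-0.28 ± 0.19, SE, adjusted p = 0.39). Dnali1, an inner arm light chain, had a difference of -1.94 ± 0.92 (SE, adjusted p = 0.19, limma).

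Rsph4a read 0.07, -0.31, -0.68, -0.30 and -0.47 in uninjured wild-type replicates 1 to 5, and -5.69, -2.82, -2.96, -2.19 and -5.29 after injury. Every injured array was below every uninjured array, and the difference was -3.45 ± 0.74 (SE, adjusted p = 0.0049, limma), which leaves 9.15% of the uninjured signal. The call of Rsph4a was lost in 9 of 32 alternative fits, though the difference stayed below 0 in all of them. The 3 probes of Rsph3a, a radial spoke protein of the stalk, had differences of -0.20 to -0.23. The brightest of them read 5.20 to 5.96 uninjured and 5.13 to 5.87 injured (adjusted p = 0.67, limma). Of the 4 radial spoke probes, Rsph4a alone was called, and its change was not tested against that of Rsph3a.

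In the central apparatus 4 of 8 tested probes fell and all 8 differences were below 0. Spag16, a central apparatus protein, had 2 tested probes. The first read -1.03, -1.79, -2.74, -1.44 and -1.84 uninjured and -6.80, -5.68, -6.92, -6.47 and -6.03 injured in wild-type mice. The injured values were not well above background on any array, which puts the change at at least 9.35-fold lower. The adjusted p of 0.00090 (limma) is for the measured values and does not test this bound. The second probe had a difference of -4.93 ± 1.02 (SE, adjusted p = 0.0041).

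Hydin, which forms a projection of the central pair, fell by 3.44 (SE 0.64, adjusted p = 0.0020, limma). Ak7, an adenylate kinase of the axoneme, was the brightest probe of this role. It read 3.07, 2.52, 1.69, 2.72 and 2.45 uninjured and -2.07, -0.30, 0.39, -0.23 and -1.63 injured, with no overlap (-3.26 ± 0.78, SE, adjusted p = 0.0093). The call of Ak7 was lost in 19 of 33 alternative fits, though the difference stayed below 0 in all of them. Spag17 and Spag6l, 2 more central apparatus proteins, had differences of -2.62 and -2.81 with adjusted p of 0.026 and 0.033, and Spef1, a microtubule bundling protein, had -0.56.

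The proteins inside the doublet wall were not called. The 4 tektin probes (2 of Tekt1, and Tekt2 and Tekt4) had differences of -1.04 to -1.41 with adjusted p of 0.27 to 0.32, and the 2 probes of Efhc2, a doublet EF-hand protein, of -0.39 and -0.47 (adjusted p = 0.77 for both, limma). Tekt1 read 4.45, 3.46, 2.94, 3.78 and 3.72 in uninjured wild-type mice. Injured replicates 2, 3 and 4 read 3.32, 2.96 and 3.79, within the uninjured range, and replicates 1 and 5 read 0.24 and 1.00, below it.

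The injured wild-type arrays divided by slide and scan day. In 31 of the 37 probes, the arrays of slides 1 and 5 both read lower than those of slides 2, 3 and 4, which held for 25.2% of all tested probes. On slides 1 and 5 the tektins had a median change of -3.45 and -2.62 from the uninjured wild-type mean. The outer arm heavy chain medians were -3.61 and -3.24. Each was the value of a dim Dnah5 probe at background, so these medians are limited by the background, as were those of slides 2 and 4. On slides 1 and 5 the brightest Dnah5 probe changed by -5.14 and -5.41, Dnah11 by -3.85 and -3.04 and Dnah8 by -0.68 and -0.36. On slides 2, 3 and 4 the tektin medians were -0.13, -0.61 and 0.23, while the outer arm heavy chains stood at -1.96, -2.65 and -1.99 and the central apparatus at -2.09, -2.03 and -2.54. Both Efhc2 probes read above their uninjured mean on those 3 slides, by 0.38 to 0.89, and below it on slides 1 and 5.

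**Figure D3:**
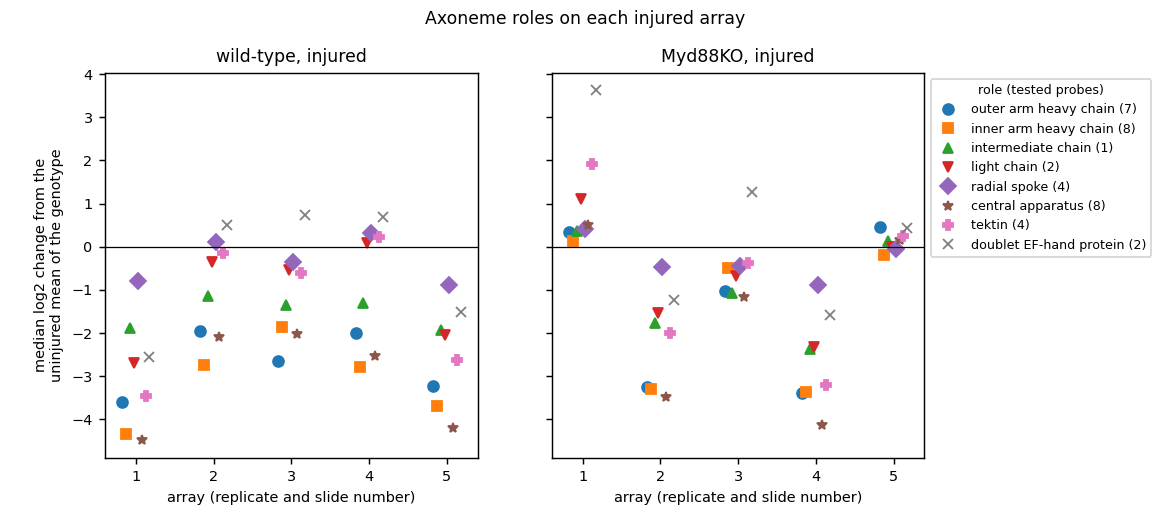
Median log2 change of each role on each injured array, from the uninjured mean of the same genotype, with the number of tested probes in brackets. In wild-type mice every role lies below 0 on arrays 1 and 5, while on arrays 2 to 4 the tektins are near 0 and the EF-hand probes (Efhc2) above it. In Myd88KO mice every role lies below 0 on arrays 2 and 4, and arrays 1 and 5 are near or above 0.

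Within the arrays of slides 2 to 4 alone, the wild-type median difference was -1.41 and 28 of 37 differences were below 0. Within slides 1 and 5 it was -3.72, with 37 of 37 below 0. Both sets were chosen after the data were seen, with 3 arrays per group in the first and 2 in the second. Fitted separately, the first set of arrays gave 7 calls, 6 lower and Dnah8 higher, against 1.15% of all probes called lower and 2% higher in that fit. The second gave 23, all lower, against 1.51% of all probes. The uninjured arrays did not divide this way: the per-array median change of the 37 probes ran from -0.41 to 0.41 in uninjured wild-type and from -0.23 to 0.06 in uninjured Myd88KO mice.

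In Myd88KO mice the injured arrays were spread over the whole range. No member probe was called (0 of 37), with 0.376% of all tested probes called in either direction and 0.242% called lower. At an unadjusted p under 0.05, 15 of the 37 were lower and 1 was higher, against 12.2% of all probes lower. The median difference was -1.03, against -0.07 over all probes, and 33 of 37 were below 0, against 57.7% of all probes. The smallest adjusted p was 0.025 (limma), for a Spag16 probe. Relative to the uninjured wild-type mean, the median over the 37 probes was 0.30, -2.81, -0.73, -3.62 and 0.01 on injured Myd88KO replicates 1 to 5, a range from above the uninjured level to that of the lowest injured wild-type array, at -3.62.

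Rsph4a showed the spread. It read -0.78, -0.62, -0.70, -0.43 and -0.997 in uninjured Myd88KO replicates and -0.58, -3.996, -1.81, -4.92 and -0.71 after injury. Replicates 1 and 5 lay within the uninjured range and the other 3 below it, so that the difference of -1.70 ± 0.74 (SE) had an adjusted p of 0.21 (limma). Dnah5 behaved alike in its brightest probe, at 1.70, -2.86, 0.05, -3.04 and 1.78, with uninjured arrays from 0.88 to 1.80. Hydin read -0.47, -3.87, -1.80, -4.29 and 0.18 against -0.05 to 0.48, and only replicate 5 stayed within the uninjured range. In 28 of the 37 probes, the arrays of slides 1 and 5 both read higher than those of slides 2, 3 and 4, the reverse of the wild-type order, against 22.1% of all tested probes. Replicate 4 gave the lowest of the 5 values in 30 of 37 probes, and replicate 1 the highest in 25.

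**Figure D4:**
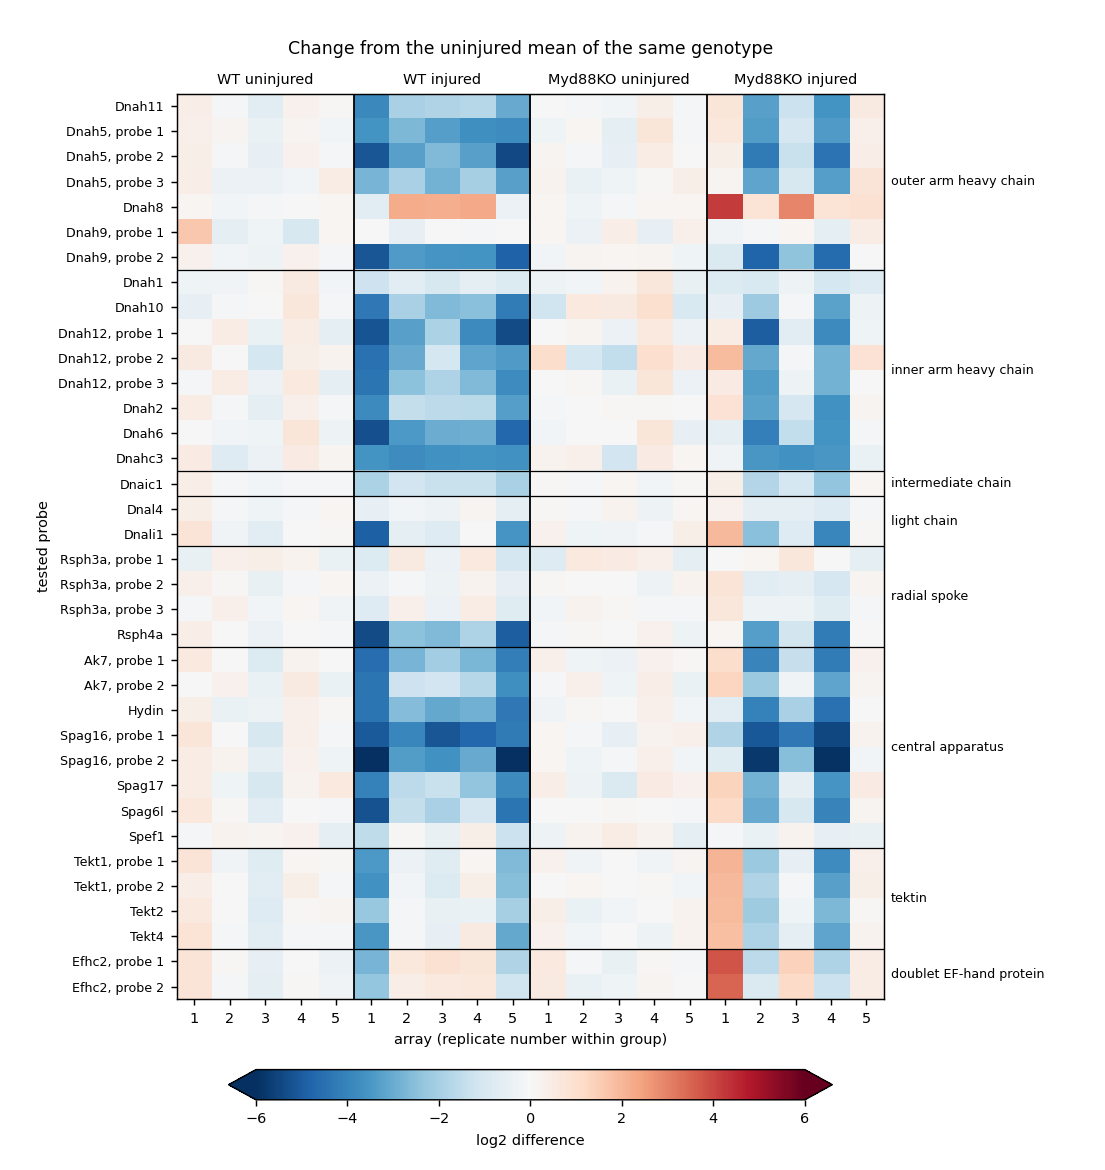
Log2 change of 36 of the 37 tested probes (rows, by role) on each of the 20 arrays (columns, by group and replicate) from the uninjured mean of the same genotype. Blue is lower and red higher, with the colour scale ending at 6 in either direction. Uninjured arrays are near 0, injured wild-type arrays are blue in the heavy chain and central apparatus rows, and injured Myd88KO arrays range from deep blue (2 and 4) to red in the tektin and Efhc2 rows (1).

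Without Myd88KO injured replicate 5, 4 member probes were called lower in place of 0, against 2.26% of all probes called lower in that fit, and the median difference was -1.30. Without replicate 1 none was called, against 0.219% of all probes, and the median was -1.55. Without replicate 2 the median was -0.66 with no call. Without replicate 4 the median was -0.59 and no probe was called. When limma gave each array a weight by its agreement with its group, 12 member probes were called lower, against 4.3% of all probes.

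On Myd88KO injured replicate 1 the members ran in both directions. Relative to the uninjured Myd88KO mean, the tektins had a median change of 1.92 and the 2 Efhc2 probes changed by 3.77 and 3.48, with Dnah8 at 4.20, the highest change of any member on any array. On the same array the Spag16 probes were at -1.79 and -0.71, Dnah9 at -0.85 and Hydin at -0.63. Myd88KO replicate 3 had Efhc2 at 1.40 and 1.16 and Dnah8 at 2.91 beside Spag16 at -4.29 and -2.56, and wild-type replicates 2 to 4 had Dnah8 at 2.17 to 2.28 beside Spag16 at -3.05 to -5.15. Dnah8 was the member probe whose injured Myd88KO arrays all lay above the uninjured ones, at 1.09, -2.29, -0.21, -2.32 and -2.18 against -3.38 to -2.99, which held for 1.15% of all tested probes. Its difference was 1.93 ± 0.63 (SE) with an adjusted p of 0.097 (limma).

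Before injury no genotype difference was detectable in this gene set by the fit over all 4 groups, with 5 arrays per group. None of the 37 probes was called and none had an unadjusted p under 0.05, against 0.384% called and 5.59% with an unadjusted p under 0.05 among all tested probes. The differences, Myd88KO minus wild-type, ran from -0.79 to 0.23 with a median of -0.16. The fit uses 1 spread for all 4 groups, and injured arrays varied more in most of these probes. The low counts therefore do not show that the genotypes were alike. A dim Dnah5 probe differed by -0.65 ± 0.60 (SE), with SDs of 0.28 and 0.48 uninjured and 1.92 in injured Myd88KO. Within slides 2 to 4 the median was -0.06, with 20 of 37 below 0. Within slides 1 and 5 it was -0.25, with 34 of 37, a split chosen after the data were seen.

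After injury, 35 of 37 probes had a higher mean in Myd88KO than in wild-type mice, with a median difference of 1.01 (54.7% of all probes were lower), but none was called and 5 had an unadjusted p under 0.05, against 0.38% of all probes called and 12.5% at that unadjusted p. The interaction, the Myd88KO injury response minus the wild-type one, had a median of 1.08 and again no call among 37 (0% of all tested probes were called), and 3 probes had an unadjusted p under 0.05, against 10.4% of all. These 2 comparisons share the injured arrays. The median of the first was 0.48 without Myd88KO replicate 1, 0.71 without replicate 5 and 1.56 without replicate 4, and 0.61 without wild-type injured replicate 1. That of the interaction was 0.56, 0.75 and 1.64 without the same Myd88KO arrays. Neither had a call when any single array was left out.

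The sign of the genotype difference changed with the slides. Within slides 2, 3 and 4 the injured Myd88KO mean was the lower one in 34 of 37 probes, with a median difference of -0.68. Within slides 1 and 5 it was the higher one in 36 of 37, with a median of 3.97. Separate fits of the 2 sets of slides were chosen after this split was seen, and had 3 and 2 arrays per group. Fitted on slides 2 to 4 alone, no probe was called between the injured groups, against 0.249% of all probes, and 12 fell with injury in Myd88KO mice, against 2.27% of all probes. On slides 1 and 5 alone, 25 were called higher in injured Myd88KO than in injured wild-type mice, against 1.85% of all probes. None was called between injured and uninjured Myd88KO mice there, as was the case for all probes (0%). Whether scan day, the slide or the animals that were placed on it carried this split was not tested.

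Other ciliary genes were read from lists of pathway members, using the brightest tested probe per gene. Of 33 further axonemal and ciliary proteins, 5 fell in injured wild-type mice and none rose, with a median difference of -1.80. Among them were Cfap43 (-3.84 ± 0.66, SE, adjusted p = 0.0013, limma), Cfap53 (-3.67 ± 0.65) and Cfap61, which was not well above background on any injured wild-type array and so is bounded at at least 3.66-fold lower. Of 4 outer arm docking genes 1 fell, Odad2 (adjusted p = 0.0057 on the measured values, limma). It was not well above background on any injured wild-type array and is bounded at at least 2.79-fold lower. None of 12 dynein arm assembly factors and none of 11 nexin-dynein regulatory complex genes was called, with medians of -0.64 and -1.92. None of 18 genes of cytoplasmic dynein and dynactin was called, and their median was 0.07. In Myd88KO mice no gene of these lists was called.

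A further 10 tested probes carry an axoneme gene under another array name and stood outside the name rule. Of these, 2 fell in injured wild-type mice: Rsph14, a radial spoke gene listed as Rtdr1 (-3.49 ± 0.68, SE, adjusted p = 0.0027, limma), and another Dnah12 probe on chromosome 14 listed as 4921531P07Rik (-2.56 ± 0.61, adjusted p = 0.0092).

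None of 6 transcription regulators of ciliogenesis was called in either genotype, with a median difference of -0.23 in wild-type mice. Foxj1, the master regulator of motile ciliogenesis, had a difference of -0.41 ± 0.85 (SE, adjusted p = 0.81, limma) in wild-type mice, made of changes of 0.81, 0.67 and 1.73 on slides 2, 3 and 4 and of -2.84 and -2.42 on slides 1 and 5. Ccno and Myb, which act early in multiciliated cell differentiation, were picked here after their values were seen. Ccno changed by 3.96, 3.50 and 4.68 on slides 2, 3 and 4 and by 0.26 and 0.66 on slides 1 and 5 of wild-type mice. On injured Myd88KO replicates 1 to 5 it changed by 5.04, 2.25, 3.58, 1.09 and 2.02. Myb changed by 1.89, 2.19 and 2.97 and by -0.42 and -0.44 on the same wild-type arrays. On the Myd88KO replicates it changed by 3.85, 0.67, 1.91, -0.19 and 0.97. The array with the highest Dnah8 change in each genotype, wild-type replicate 4 and Myd88KO replicate 1, was also the highest for Ccno and Myb.

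**Figure D5:**
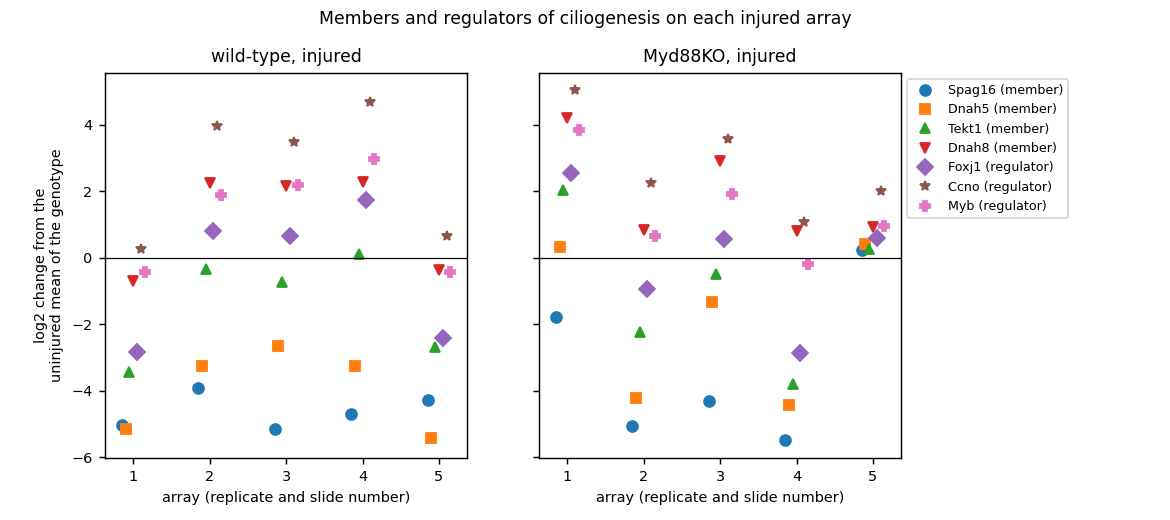
Log2 change from the uninjured mean of the same genotype on each injured array, for 4 members (Spag16, Dnah5, Tekt1, Dnah8; 1 probe each) and 3 regulators (Foxj1, Ccno, Myb). On wild-type arrays 2 to 4 and Myd88KO arrays 1 and 3, Ccno, Myb, Foxj1 and Dnah8 lie above 0 while Spag16 lies below 0. On wild-type arrays 1 and 5 and Myd88KO arrays 2 and 4, Foxj1, Tekt1, Dnah5 and Spag16 are all below 0.

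Markers of other cells changed on the same arrays. Of 8 secretory cell markers 3 fell in injured wild-type mice: Scgb1a1 (-7.91 ± 0.69, SE, adjusted p = 1.05e-05, limma), Scgb3a2 (-5.77 ± 0.83) and Bpifa1 (-2.24 ± 0.31). In Myd88KO mice 2 of the 8 fell, Scgb1a1 (-6.24 ± 0.73, SE, adjusted p = 0.00069, limma) and Bpifa1 (-2.36 ± 0.33), both fitted without injured replicate 5, whose spots were marked as outliers. The median change of this list ran from -1.79 to -0.31 over the injured wild-type arrays and from -0.33 to 0.46 over the uninjured ones. In Myd88KO mice it ran from -1.08 on injured replicate 1 to 0.07 on injured replicate 5, and from -0.36 to 0.42 uninjured. Of 7 leukocyte markers 2 rose in injured wild-type mice, Cd68 (3.27 ± 0.54) and Csf1r (1.55 ± 0.36). The list median there ran from 1.55 to 3.54 injured and from -0.29 to 0.27 uninjured. In injured Myd88KO arrays it ran from -0.50 to 2.70. None of 8 general epithelial markers and none of 6 basal cell markers was called, with injured wild-type list medians of -0.47 to 0.69 and -0.33 to 0.79, and none of the skeletal muscle (5), cartilage (4) and thyroid (4) markers was called in either genotype. The part of cell composition in the axoneme result was not tested.

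Promoter sequence was read for the member genes from RefSeq windows (GRCm38.p6) of 250 bases before and 50 after each start site. Of the 31 genes 28 had a window, with 31 windows in all, and Dnahc3 and Rsph4a were among those with none. They had a median GC content of 54.7% (38.3 to 67.0), against 52.7% over all 32851 windows of the table. The X-box of Rfx factors was searched as GTNNCC, 0 to 3 bases and GGNNAC, which reads alike on both strands, and the forkhead core as GTAAACA on either strand. The X-box was held by 3 of 31 member windows (9.68%) and by 3.86% of all windows, and the forkhead core by 2 of 31 (6.45%) and 3.65% of all. The X-box matches lay in Tekt4, at -160 from the start site, Spag6l, at 35 after it, and the untested Tctex1d1, at -27. The forkhead matches lay in Ak7, at -131, and the untested Tekt3, at -174. These counts are a description and mark no binding site.

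The 250 bases upstream of 4 members are shown: Spag16 and Dnah9, which had the lowest measured differences among the central apparatus and outer arm probes and have no match to either motif, and Ak7 and Tekt4, each with a match in capitals. Spag16 lies on the plus strand at chr1:69826720-69826969, Dnah9 on the minus strand at chr11:66168552-66168801, Ak7 on the plus strand at chr12:105705732-105705981 and Tekt4 on the plus strand at chr17:25471340-25471589.
Spag16: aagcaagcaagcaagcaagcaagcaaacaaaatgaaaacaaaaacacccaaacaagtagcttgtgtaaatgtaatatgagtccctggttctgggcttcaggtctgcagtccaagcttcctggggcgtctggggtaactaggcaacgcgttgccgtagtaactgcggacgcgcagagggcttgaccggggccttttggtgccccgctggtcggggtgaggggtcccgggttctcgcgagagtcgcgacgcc
Dnah9: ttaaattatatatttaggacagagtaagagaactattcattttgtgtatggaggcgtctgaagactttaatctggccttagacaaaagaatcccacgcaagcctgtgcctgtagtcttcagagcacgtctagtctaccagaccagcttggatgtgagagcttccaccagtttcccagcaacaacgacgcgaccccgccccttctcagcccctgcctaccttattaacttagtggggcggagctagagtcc
Ak7: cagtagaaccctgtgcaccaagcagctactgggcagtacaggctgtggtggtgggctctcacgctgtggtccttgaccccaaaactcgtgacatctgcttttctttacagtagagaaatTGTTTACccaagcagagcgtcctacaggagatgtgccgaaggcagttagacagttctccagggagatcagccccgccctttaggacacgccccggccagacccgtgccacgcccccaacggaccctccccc
Tekt4: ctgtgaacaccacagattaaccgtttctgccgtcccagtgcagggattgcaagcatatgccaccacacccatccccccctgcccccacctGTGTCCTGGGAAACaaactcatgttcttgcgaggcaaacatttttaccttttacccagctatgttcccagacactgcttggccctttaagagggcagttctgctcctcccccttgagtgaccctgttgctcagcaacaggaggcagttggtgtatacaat
The capitals in Ak7 are the forkhead core read on the opposite strand, and those in Tekt4 the X-box. Ak7 fell with injury in wild-type mice, a call lost in 19 of 33 alternative fits. Tekt4 had a difference of -1.33 ± 0.78 (SE, adjusted p = 0.30, limma), so both a gene called in the main fit and an uncalled gene carry a match.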

How the data were processed

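Per the labels and the array files, 20 samples were each read on a 1-colour Agilent array, and the authors deposited the scanner output of Agilent Feature Extraction 9.5.1.1 with processed intensity values, background-corrected by that software, and a table of the same signal on a linear intensity scale (0.995 to 1.00 of the scanner values). The genome build of the probe positions is not given in the sources used here. Of 45018 spots, 1639 controls were left out, and so were 1960 values marked as outliers. The log2 was taken, spots of a probe were averaged on that scale and the 75th percentile of each array was subtracted. Arrays carry no read depth, so the number of arrays limits the precision. Gene symbols came from RefSeq by accession (22951 probes), symbol (6659) or older symbol (3109), and 8455 probes kept the array name.

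A single limma 3.58.1 model (R 4.3.3) over all 20 arrays and 26064 probes, each well above background on at least 10 arrays, gave 5 contrasts: injury in each genotype, genotype in uninjured and in injured mice, and the difference of the injury responses. Calls needed a Benjamini-Hochberg adjusted p under 0.01. The script was tested on simulated data. A probe below background on every array of a group has a bound, computed from the lowest signal well above background on each array and written "at least". Alternatives were other background correction, scaling, filters, blocks, weights, the deposited table, the methods' one-way test and leaving out each array, and, chosen after seeing the data, each scan day alone. The genes named in full were Rsph4a, the brightest probe of each role and the 10 largest changes among called probes. The values of 1 member gene are not reported here singly, though it is counted among the tested probes. Others are named to account for members of a role, and pathway genes by size. Members and lists were chosen with earlier results of these data known.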

Additional observations from a re-analysis of the deposited data

Results flagged for a closer look

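Among 68 groups of 5 arrays examined for a single array far from the others, 2 had one, and chance alone would mark about 1 group in 20. Dnaic1 read 0.84 in uninjured wild-type replicate 1, where the gap to the next array was 0.814 of the group's range. Dnahc3 read -4.79 in uninjured Myd88KO replicate 3, with a gap of 0.765 of the range.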

How the results depend on the processing

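In wild-type mice the 14 calls became 12 with normexp, 14 with quantile scaling, median centring or the deposited table, 14 of 60 with no filter, 16 with a scan day block, 19 with the 2 wild-type groups alone and 12 by the methods' one-way test. They became 4 of 19 probes when only probes above background on all arrays were fitted, 22 with array weights, 7 on scan day 1 and 23 on scan day 2 (the single-day fits were chosen after seeing the data). Leaving out single arrays gave 7 to 16. For wild-type mice the share of all probes called is given above for the main fit and the single-day fits only. The other counts do not tell whether members gained or lost calls beyond the whole array. With the replicate number as a block, 12 probes were called in wild-type (11 of the 14) and 0 in each of the other 4 comparisons. Same-numbered arrays share a slide. Their deviations correlated at -0.03 to 0.39 for the wild-type and 0.00 to 0.46 for the Myd88KO injury comparison, above 0.1 in 4 of 5 pairs each. The main fit left this pairing out, and the block fit is the one that includes it. In the uninjured comparison all 5 pairs were above 0.1 (0.25 to 0.48), and with the block no member had an unadjusted p under 0.05, as without it. In Myd88KO mice the 0 calls became 1 with a scan day block, 12 with array weights, 12 on scan day 1 and 0 to 4 without single arrays. Between the injured groups they became 25, and for the difference of responses 17, on scan day 2 alone, and leaving out arrays gave 0 for the latter. The share of all probes called is not given for the 17. On scan day 2 the Myd88KO injury difference turned positive for Rsph4a (0.24), Rsph3a (0.30), Tekt1 (0.96), Dnal4 (0.0077), Ak7 (0.49), Dnah2 (0.58), Dnah5 (0.30 and 0.61), Dnaic1 (0.19) and Dnah12 (0.29). On scan day 1 the wild-type difference turned positive for Rsph3a (0.11) and Dnal4 (0.042). The causes were not tested. Dim probes near background have only bounds, and 5 arrays per group limit what was detectable.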
